A study of Mus musculus with 6 samples.

Results

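The genes described here are 10 markers of the macrophages that live in the vessel wall: Mrc1, Cd163, Lyve1, Folr2, Timd4, Cbr2, Gas6, F13a1, Csf1r and Mertk. They were taken by gene name from a table of 54532 genes, each name matched 1 row, and all 10 passed the filter on low counts. RNA was sequenced from mouse abdominal aorta on day 7 of an induced aneurysm, in which the vessel bulges and its wall weakens. One group carried the genotype Olfr2 KO, a knockout of an olfactory receptor gene, and the other was wild type (WT), with 3 libraries each. Both groups had the aneurysm induced, so no comparison with healthy aorta is made. Values of single libraries are always listed in the order of their replicate numbers, KO before WT. The labels give neither age, sex, strain, the way the aneurysm was induced nor the number of animals behind a library, so p-values measure only the spread between these libraries.

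Resident macrophages of arteries lie mainly in the outer layer of the wall, where they clear dying cells and debris and bind matrix. They depend on signals through the Csf1r receptor for survival. After injury, monocytes enter from the blood and become macrophages too, and these recruited cells share Csf1r and, with time, other markers with the resident ones. None of the 10 genes belongs to resident macrophages alone. Lyve1 is also made by lymphatic vessels, Gas6 by smooth muscle and fibroblasts, Cbr2 by fat cells, and F13a1 by monocytes.

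The libraries held 17248918 to 21872027 counts. Defining macrophage genes were present in every library, such as Cd68 at 207 to 411 CPM (counts relative to library size, scaled by TMM factors) and C1qa at 781 to 1473 CPM. Smooth muscle myosin, Myh11, was present at 82.1 to 288 CPM. Olfr2 had 0 counts in all 6 libraries, which allows up to 3 counts each, so its level does not check the genotype labels. The library labelled WT replicate 2 stood apart in a macrophage gene: lysozyme 2, Lyz2, was at 31.7 CPM there against 3871 to 5899 CPM in the other 5, while its near copy Lyz1 was at 448 CPM against 9.84 to 39.3 CPM. Skeletal muscle genes summed to 1111 CPM in KO replicate 3 and to 5.81 to 17.9 CPM elsewhere. The labels give no strain or cage, so whether WT replicate 2 has the same genetic background as the other libraries cannot be told, and every WT mean below includes it. Where leaving out either library turned the sign of a marker's estimate, the value without it is given.

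Compared per kilobase of exon, the 10 levels spanned a wide range, from 168 RPKM (CPM per kilobase of exon) for Gas6 to 0.936 RPKM for Cd163 as means of 6 libraries. Gas6 encodes a secreted bridge between dying cells and the Mertk receptor, and Csf1r, at 151 RPKM, encodes the receptor for the macrophage growth factor Csf1. The ranges of these 2 overlapped over the 6 libraries. Csf1r was then 5.15 times Mrc1, the mannose receptor gene, which stood at 29.3 RPKM, with no overlap between any libraries of the pair. From there the means were 26.4 for Cbr2, 17.4 for Mertk, 13.4 for F13a1, 7.70 for Lyve1, 4.02 for Folr2 and 1.51 RPKM for Timd4. Each gene from Mrc1 downward overlapped its neighbour in the order over the libraries, so that order is not firm. The 4 lowest means were those of Lyve1, Folr2, Timd4 and Cd163, while Mrc1, Cbr2 and F13a1 from the same set of markers ranked higher. The level of Folr2 is uncertain, since 63.1% of its exon bases overlap another gene.

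**Figure D1:**
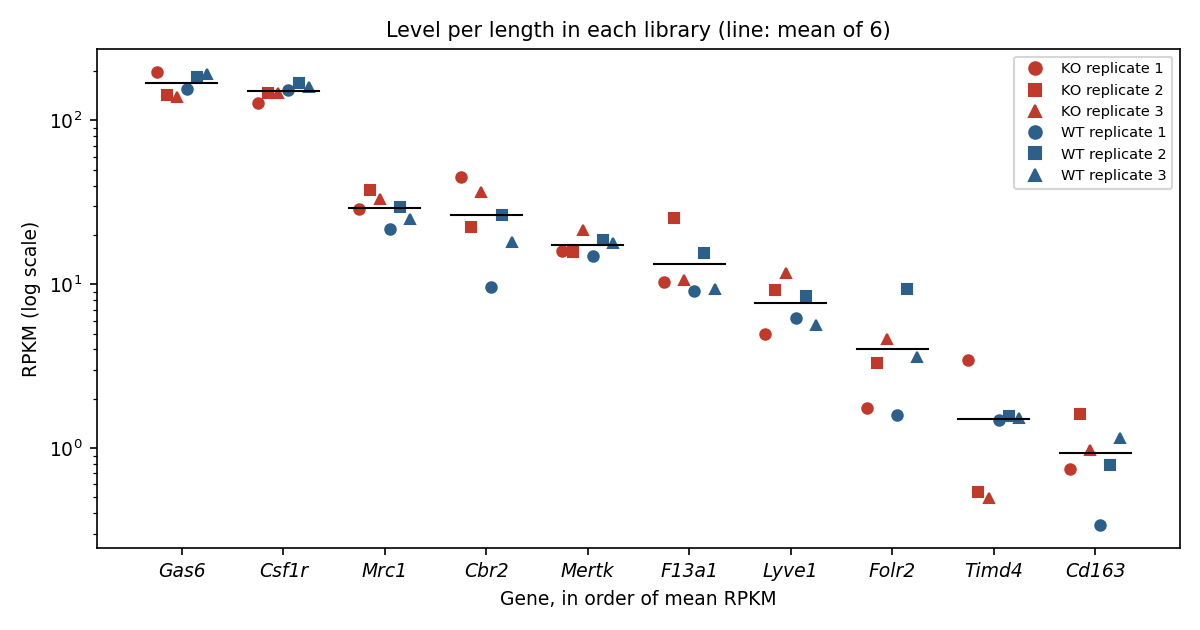
Level of each marker in RPKM on a log axis, genes in order of their mean, with a symbol for each library (red KO, blue WT) and a line at the mean of 6. Gas6 and Csf1r stand above the other 8, and Timd4 and Cd163 are lowest at 1.51 and 0.936 RPKM.

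The comparison of KO with WT asks whether transcripts of resident macrophages differ in aneurysm tissue without Olfr2. None of the 10 markers passed at an adjusted p under 0.05 in edgeR's quasi-likelihood test, where 2 of 16237 tested genes did (0.0123%). DESeq2 called none of them either, although it called 454 of the 14962 genes to which it gave an adjusted p (3.03%). Limma-voom called 0 of all 16237 genes, so its lack of calls says nothing about the markers in particular. At an unadjusted p under 0.05 there were 2 markers, Mrc1 and Cbr2, both higher in KO, against 5.23% of all tested genes in that direction, while 0 markers were lower against 6.08%. The robust form of the quasi-likelihood fit called 0.00616% of genes and 0 markers. With 1 library left out, the standard fit called 0.0181% of genes when that was KO replicate 2, 0.012% for KO replicate 3, 0.00598% for WT replicate 2, 0.931% for WT replicate 3 and 0 genes for KO replicate 1 or WT replicate 1. It called 0 markers each time. Without KO replicate 3 and WT replicate 2 together the standard fit called 0.0182% of genes and again 0 markers, and the log2 fold changes were then 0.52 for Mrc1, 1.30 for Cbr2, 0.96 for F13a1 and -0.02 for Folr2. The KO estimate was higher for 6 markers and lower for 4, with a median log2 fold change of 0.20. Over all tested genes 51.2% had a higher estimate and the median was 0.01. In bulk tissue, fewer cells of a type and less RNA per cell cannot be told apart.

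Csf1r (ENSMUSG00000024621, chromosome 18, 61100598 to 61132149) is the receptor that keeps macrophages alive. It stood at 735, 852 and 852 CPM (KO) and 885, 979.7 and 922 CPM (WT). The highest KO library lay below the lowest WT library, the only marker of the 10 whose groups did not overlap, where 9.01% of all tested genes had KO below WT in this way, 7.83% had KO above WT and 16.8% did either. The gap was small, a log2 fold change of -0.19 (SE 0.13, 95% interval -0.49 to 0.11), and it did not pass (adjusted p = 0.659, edgeR). Over all 6 libraries Csf1r varied least of the 10, the highest being 1.33 times the lowest. Of its exon bases 15.1% overlap Hmgxb3 on the other strand, whose own level was 21.9 to 28.6 CPM.

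Mrc1 (ENSMUSG00000026712, chromosome 2, 14229392 to 14332057) encodes the mannose receptor CD206, which takes up glycoproteins and collagen fragments. Its levels were 184, 239 and 209.6 CPM (KO) and 139, 189 and 159 CPM (WT). KO replicate 1 lay just under WT replicate 2, and the other KO libraries lay above all of WT. KO exceeded WT by a log2 fold change of 0.38 (SE 0.15, 95% interval 0.04 to 0.72), with an unadjusted p of 0.0314 and an adjusted p of 0.378 (edgeR).

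Cbr2 (ENSMUSG00000025150, chromosome 11, 120729489 to 120732114) encodes a carbonyl reductase. It had the largest estimate of the 10, with levels of 60.2, 29.5 and 48.8 CPM (KO) and 12.8, 35.1 and 23.9 CPM (WT). KO replicate 2 lay under WT replicate 2, so the groups overlapped. The estimate on the log2 scale was 0.95 (SE 0.35, 95% interval 0.15 to 1.75), with an unadjusted p of 0.0251 and an adjusted p of 0.348 (edgeR). With no filter on low counts the same test called Cbr2 (adjusted p = 0.0133), and with it 644 of 29498 genes (2.18%). White adipocyte genes, 8 in the list, summed to 1534, 929 and 1273 CPM (KO) and 284, 259 and 1244 CPM (WT). All 8 had higher estimates in KO with a median log2 fold change of 1.25, and 3 had an unadjusted p under 0.05. Of these, the hormone genes Lep and Adipoq had estimates of 2.25 (SE 0.78) and 1.55 (SE 0.57), and the most abundant, Cfd and Pnpla2, had 1.19 (SE 0.70) and 0.45 (SE 0.31). None of the 8 was at 0 in all libraries, 0 were called, and the part of fat cells in the Cbr2 values was not tested.

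The windows around the start sites of Mrc1 and Cbr2 are shown because these 2 markers had the smallest p-values. They come from RefSeq on GRCm38.p6 and run from 250 bases before the start to 50 after it, 5′ to 3′ on the gene's strand. Capitals mark GAGGAA, the core bound by the macrophage factor PU.1, and TGCTGAC, a half-site of MAF factors, on either strand. No marked sites overlap.
Mrc1 (chr2:14229164-14229463, plus strand): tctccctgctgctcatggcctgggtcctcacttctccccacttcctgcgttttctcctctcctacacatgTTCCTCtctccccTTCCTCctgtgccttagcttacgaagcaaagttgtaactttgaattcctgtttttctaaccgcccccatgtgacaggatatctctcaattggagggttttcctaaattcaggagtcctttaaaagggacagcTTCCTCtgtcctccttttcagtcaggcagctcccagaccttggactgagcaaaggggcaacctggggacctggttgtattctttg
Cbr2 (chr11:120731972-120732271, minus strand): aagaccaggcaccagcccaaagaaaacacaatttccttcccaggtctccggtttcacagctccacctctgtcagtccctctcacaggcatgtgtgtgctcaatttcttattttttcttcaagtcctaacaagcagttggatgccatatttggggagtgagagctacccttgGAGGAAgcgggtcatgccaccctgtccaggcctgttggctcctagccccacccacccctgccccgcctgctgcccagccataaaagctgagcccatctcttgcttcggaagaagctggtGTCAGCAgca
Mrc1 held GAGGAA 3 times, each on the reverse strand, with the nearest beginning 35 bases before the start. Cbr2 held it once, on the forward strand, and TGCTGAC once on the reverse strand. The table of windows covered 8 of the 10 markers. These 8 had 10 windows. GAGGAA was in 4 of the 10, from Mrc1, Cbr2 and F13a1, and in 28.3% of all 32851 windows. TGCTGAC was in 2 of the 10, from Cbr2 and Timd4, and in 4.67% of all windows. A match of letters is a description of the window and shows no binding.

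Cd163 (ENSMUSG00000008845, chromosome 6, 124304656 to 124330527) encodes the receptor that clears haemoglobin bound to haptoglobin. It was at 4.07, 8.85 and 5.31 CPM (KO) and 1.85, 4.30 and 6.27 CPM (WT), which are 34 to 173 counts. WT replicate 1 was the low library and KO replicate 2 the high one. On the log2 scale the KO estimate was higher by 0.56 (SE 0.44, 95% interval -0.43 to 1.54, adjusted p = 0.712, edgeR), and it was 0.19 without KO replicate 2, 0.20 without WT replicate 1 and 0.99 without WT replicate 3. Among 11 genes of haem and iron handling, 10 had a higher estimate in KO, 0 were called and 0 had an unadjusted p under 0.05. Haptoglobin, Hp, had a log2 estimate of 0.49 (SE 0.25), the biliverdin reductase gene Blvra one of 0.16 (SE 0.12) and the ferritin gene Fth1 one of 0.00 (SE 0.23).

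Lyve1 (ENSMUSG00000030787, chromosome 7, 110850607 to 110863239) encodes a hyaluronan receptor. It stood at 14.6, 26.9 and 33.9 CPM (KO) and 18.2, 24.8 and 16.4 CPM (WT). The KO libraries spanned the whole range of WT, with KO replicate 1 the lowest of the 6 and KO replicate 3 the highest. Its log2 fold change of 0.35 (SE 0.29, 95% interval -0.30 to 0.996, adjusted p = 0.731, edgeR) was 0.07 without KO replicate 3. Without KO replicate 1 it was 0.62 (SE 0.21, unadjusted p = 0.0167, adjusted p = 0.467, edgeR).

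Genes of lymphatic endothelium were detected in all libraries, with its master regulator Prox1 at 3.10 to 13.4 CPM and the receptor Flt4 at 13.7 to 40.2 CPM. The 8 lymphatic genes summed to 258, 399 and 386 CPM (KO) and 335, 277 and 277 CPM (WT), with none of them at 0. Their median log2 fold change was 0.22, 6 estimates were higher in KO, and 0 were called. The chemokine gene Ccl21a, which has near copies and 2 rows of that name in the table, stood at 13.3, 66.0 and 20.7 CPM (KO) and 10.8, 4.12 and 2.53 CPM (WT). It did not overlap between groups, with an estimate of 2.51 (SE 0.67, unadjusted p = 0.00447, adjusted p = 0.201, edgeR), and its count is uncertain. Itga9 and Pdpn, the most abundant of the list, had estimates of 0.23 (SE 0.16) and -0.01 (SE 0.12). KO replicate 1 had the lowest sum as well as the lowest Lyve1, but KO replicate 2 had the highest sum and KO replicate 3 the highest Lyve1. Within WT, replicate 1 had the highest sum and replicate 2 the highest Lyve1. How much of the Lyve1 level came from lymphatic vessels was not tested. Of 10 tested hyaluronan genes 0 were called. Cd44, the other main hyaluronan receptor, had an estimate of -0.08 (SE 0.12), and the hyaluronidase gene Hyal2 one of -0.11 (SE 0.12). The link protein gene Hapln1 and the synthase gene Has3, both with KO above WT in every library at 0.230 to 2.20 CPM, had estimates of 1.61 (SE 0.49, adjusted p = 0.253) and 0.82 (SE 0.40, adjusted p = 0.494, edgeR).

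Folr2 (ENSMUSG00000032725, chromosome 7, 101839988 to 101857194) encodes folate receptor beta. It stood at 2.70, 5.12 and 7.18 CPM (KO) and 2.45, 14.4 and 5.53 CPM (WT). WT replicate 2 alone was far above the rest, the same library in which Lyz2 was near 0. On the log2 scale the estimate was -0.56 (SE 0.58, 95% interval -1.87 to 0.74, adjusted p = 0.796, edgeR) and turned to 0.33 (SE 0.48) without WT replicate 2. Of the exon bases of Folr2, 63.1% overlap the predicted gene Gm10602 on the other strand, which was at 1.15 to 1.82 CPM, so its count is uncertain. Lyve1 and Folr2 lie on the same chromosome as Olfr2, at 3.84 and 5.14 Mb from it, and how much of that chromosome differs between KO and WT mice is not stated in the labels.

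**Figure D2:**
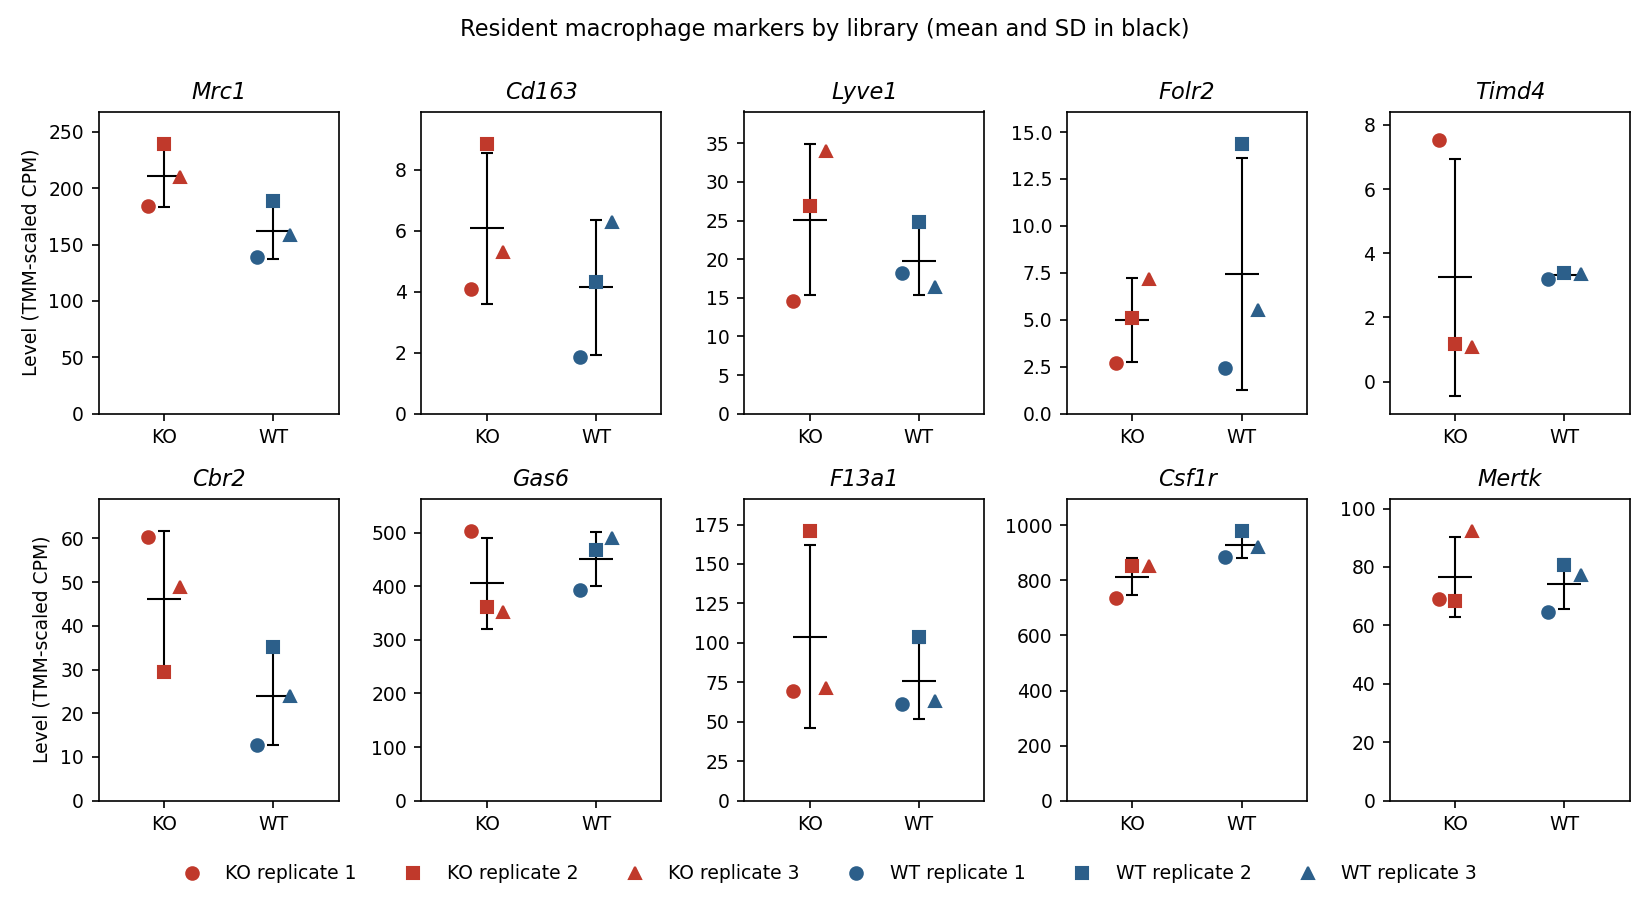
TMM-scaled CPM of each marker in the 3 KO and 3 WT libraries on linear axes, with the group mean and SD in black. Csf1r is the only marker whose KO libraries all lie on one side of the WT libraries, and Timd4 spreads from 1.07 to 7.52 CPM in KO around a tight WT group.

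Mertk and Gas6 form a receptor and ligand pair that lets macrophages swallow dying cells. Mertk (ENSMUSG00000014361, chromosome 2, 128698956 to 128802894) was at 69.1, 68.2 and 92.4 CPM (KO) and 64.6, 80.8 and 77.2 CPM (WT). The groups overlapped nearly fully. The log2 fold change was 0.05 (SE 0.15), and its 95% interval of -0.29 to 0.38 leaves room for a change of up to 1.30-fold upward or to 0.818 of the WT level (adjusted p = 0.959, edgeR). The estimate turned to -0.11 without KO replicate 3 and to -0.046 without WT replicate 1.

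Gas6 (ENSMUSG00000031451, chromosome 8, 13465374 to 13494490) was at 503, 362 and 352 CPM (KO) and 393, 467 and 490.3 CPM (WT). KO replicate 1 was the highest of all 6 and the other KO libraries the lowest. Its log2 fold change came to -0.15 (SE 0.17, 95% interval -0.53 to 0.23, adjusted p = 0.823, edgeR), and without KO replicate 1 it was -0.34 (SE 0.15, unadjusted p = 0.0503). Smooth muscle genes, whose cells also make Gas6, summed to 2531, 1614 and 2076 CPM (KO) and 1063, 1408 and 944 CPM (WT). All 8 had higher estimates in KO, with a median of 0.90 and 7 at an unadjusted p under 0.05. The contractile genes Myh11, Cnn1 and Acta2 had estimates of 1.42 (SE 0.18), 1.42 (SE 0.24) and 0.78 (SE 0.24), and 0 were called. Of 8 fibroblast genes 4 had higher and 4 lower estimates in KO, with a median of 0.01, 0 called and 1 lower at an unadjusted p under 0.05. That was Ly6a, a surface protein other cells share, at -0.87 (SE 0.22). The collagen gene Col1a1, the most abundant, was at 6087, 7296 and 9578 CPM (KO) and 8157, 11449.5 and 14087 CPM (WT), with -0.55 (SE 0.26), and the matrix proteoglycan gene Dcn had -0.02 (SE 0.17). The parts of these cells in the Gas6 level were not tested.

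Other genes of dying cell clearance did not pass either, with 0 of 18 called, and 1 higher and 3 lower in KO at an unadjusted p under 0.05. Mfge8, another bridge to dying cells that smooth muscle also secretes, was at 387, 317 and 389.9 CPM (KO) and 174, 285 and 233 CPM (WT), with no overlap and a log2 estimate of 0.66 (SE 0.18, adjusted p = 0.217, edgeR). The relative of Mertk named Axl was at 466, 459 and 463 CPM in KO and 626, 696 and 525 CPM in WT, again without overlap, and gave a log2 estimate of -0.41 (SE 0.14, adjusted p = 0.294). The engulfment gene Elmo1 had -0.39 (SE 0.12), the uptake receptor Lrp1 -0.29 (SE 0.15) and the complement gene C1qa -0.26 (SE 0.23). Pros1, the second ligand of the family, had a log2 fold change of 0.11 (SE 0.12). Within the family, then, the receptor Axl had a lower estimate in KO while that of Mertk was near 0, and the difference between the 2 was not tested.

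Timd4 (ENSMUSG00000055546, chromosome 11, 46810800 to 46844332) encodes a receptor for phosphatidylserine on dying cells and is known for long-lived resident macrophages. Its levels were 7.52, 1.18 and 1.07 CPM (KO) and 3.21, 3.40 and 3.34 CPM (WT), which are 131, 23 and 23 counts against 59, 56 and 58. The WT libraries were within 1.06 times of each other, while KO replicate 1 was 7.01 times KO replicate 3. Over all libraries the log2 fold change came to -0.04 (SE 0.66, 95% interval -1.55 to 1.46, adjusted p = 0.995, edgeR). Without KO replicate 1 it was -1.55 (SE 0.32, unadjusted p = 0.00131, adjusted p = 0.273, edgeR), and without KO replicate 2 or KO replicate 3 it was 0.37 and 0.38. The mean of the KO group therefore describes none of its libraries.

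KO replicate 1 also stood apart in some other macrophage genes, picked after their values were seen. Cd209b, a lectin of macrophages in the spleen and lymph nodes, was at 25.8 CPM there and at no more than 0.121 CPM in the other 5. Marco, a scavenger receptor found on such cells, was at 12.5 CPM against 0.870 to 4.49 CPM. Some further macrophage genes were highest there by less, such as Cd209d at 3.73 CPM and Mgl2 at 28.1 CPM. The highest WT libraries were at 3.21 CPM and 23.4 CPM for these. Others did not stand apart upward in KO replicate 1. Cd209f was at 0.631 CPM against 0.512 CPM in KO replicate 2, Siglec1 was lowest of the 6 at 70.2 CPM, and Vsig4 had 0 counts. What any of these genes have to do with the Timd4 value was not tested.

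F13a1 (ENSMUSG00000039109, chromosome 13, 36867178 to 37050244) encodes the A subunit of coagulation factor XIII, which crosslinks fibrin. It was at 69.8, 171 and 71.1 CPM (KO) and 61.0, 104 and 63.2 CPM (WT). In each group replicate 2 was high and the other 2 libraries lay close together. The log2 estimate was 0.45 (SE 0.35, 95% interval -0.35 to 1.25, adjusted p = 0.711, edgeR), and without KO replicate 2 it was -0.10 (SE 0.23). The mean log2 CPM of 11 classical monocyte genes was 7.44, 7.58 and 7.61 (KO) and 7.96, 8.08 and 7.76 (WT). Their summed level was 7270, 6054 and 6435 CPM (KO) and 6277, 7045 and 6311 CPM (WT), and most of it came from Fn1 and Hp, which other cells make too. The monocyte chemokine receptor Ccr2 was at 397, 524 and 208 CPM (KO) and 555, 526 and 350.01 CPM (WT). Ly6c2 was at 95.6, 151 and 231 CPM (KO) and 503, 741 and 258 CPM (WT). Plac8 was at 270, 324 and 332 CPM (KO) and 544, 704 and 435 CPM (WT). The log2 estimates of Ly6c2 and Plac8 were -1.65 (SE 0.40, adjusted p = 0.165) and -0.86 (SE 0.18, adjusted p = 0.137, edgeR). Of the 11 genes, 5 had KO below WT in every library and 1 had KO above, where 9.01% and 7.83% of all tested genes did. The part of monocytes in the F13a1 level was not tested. F13b, the other subunit, had 0 counts in all 6 libraries. Of 8 tested coagulation genes 0 were called. F7 was at 12.0, 19.8 and 19.9995 CPM (KO) and 6.74, 9.46 and 11.5 CPM (WT), without overlap, and had an estimate of 0.90 (SE 0.25, adjusted p = 0.22, edgeR). F10 had 0.26 (SE 0.19), the initiator of clotting F3 -0.21 (SE 0.36) and the transglutaminase gene Tgm2 -0.09 (SE 0.19).

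Across the 10 genes, WT replicate 1 was the low library: it held the lowest level for 6 markers, Mrc1, Cd163, Folr2, Cbr2, F13a1 and Mertk, and the highest for 0. KO replicate 2 was the highest for Mrc1, Cd163 and F13a1, and KO replicate 1 for Timd4, Cbr2 and Gas6. WT replicate 3 was neither highest nor lowest for any of them. Relative to its own mean over the libraries, Cd163 was at -1.32 in WT replicate 1 and at 0.94 in KO replicate 2, on the log2 scale. Folr2 was at 1.47 in WT replicate 2, and Timd4 at 1.51 in KO replicate 1. The markers thus did not share one order of the libraries, within either genotype.

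**Figure D3:**
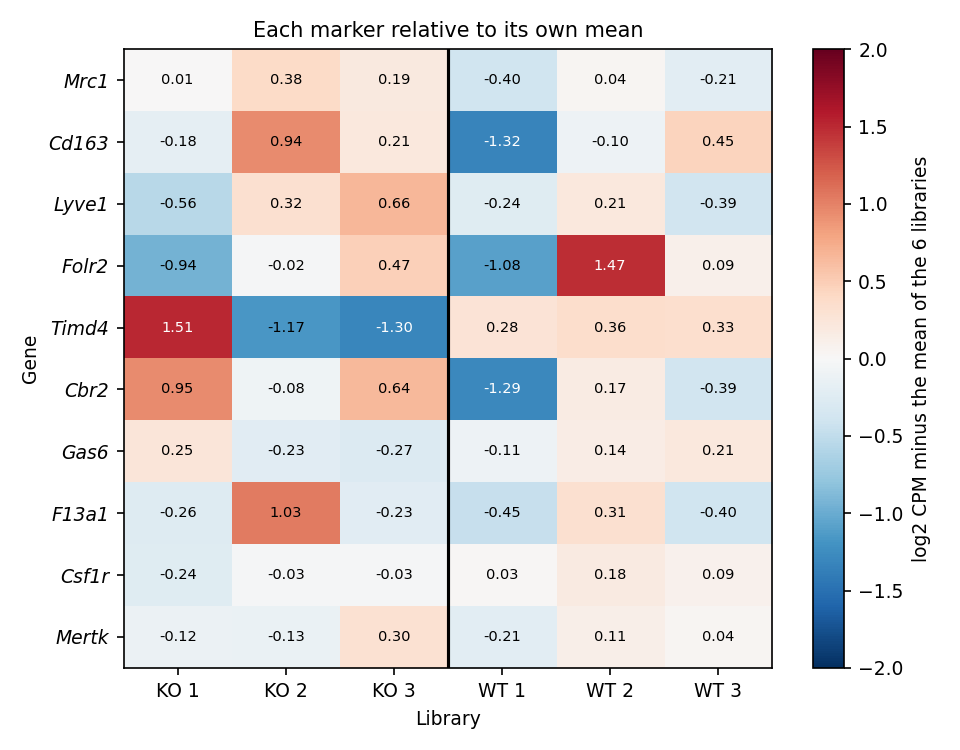
log2 CPM of each marker minus its mean over the 6 libraries, with KO left and WT right of the line. Timd4 in KO replicate 1 (1.51) and Folr2 in WT replicate 2 (1.47) are the highest values, and WT replicate 1 holds the lowest value for 6 of the 10 genes.

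**Figure D4:**
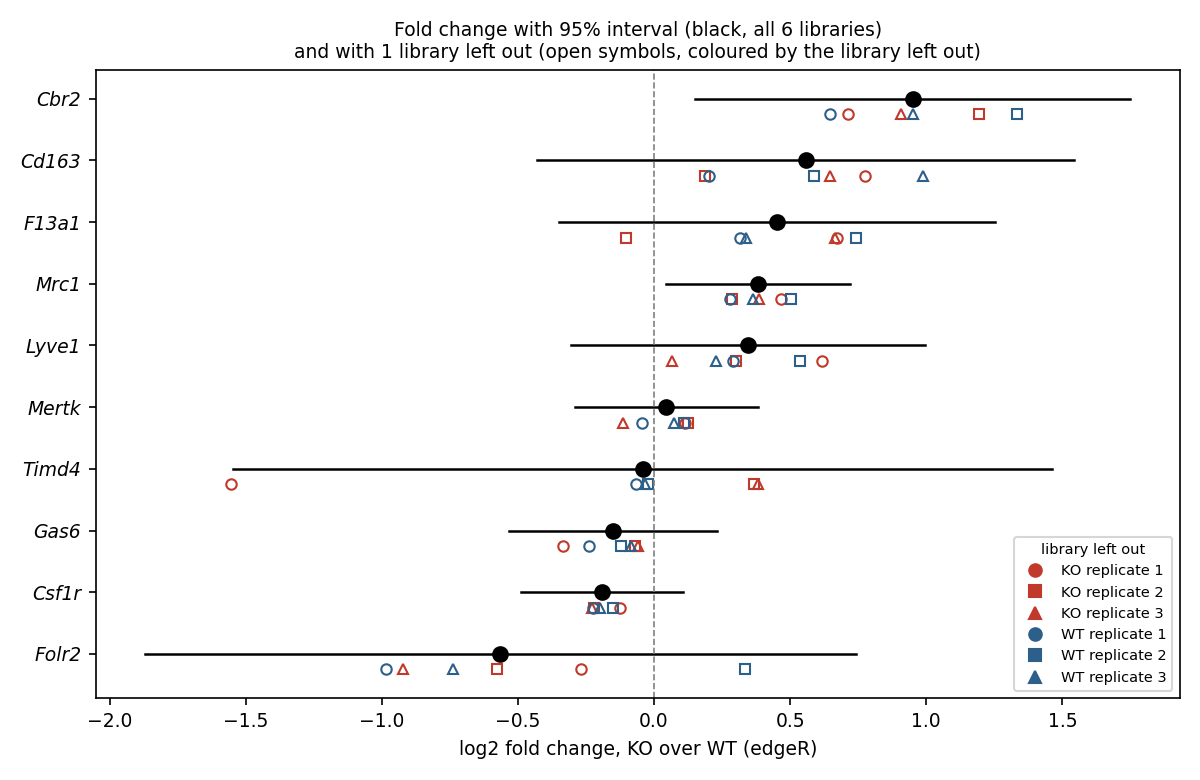
log2 fold change of KO over WT with its 95% interval (black) and the value with each library left out (open symbols). Only the intervals of Cbr2 and Mrc1 lie above 0 before adjustment, and Timd4 moves from -0.04 to -1.55 when KO replicate 1 is left out.

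Genes shared by resident and recruited macrophages had lower estimates in KO for 14 of 15, where 48.8% of all tested genes did. Their median log2 fold change was -0.29 and 0 were called. At an unadjusted p under 0.05, 3 were lower, where 6.08% of all tested genes were. The lysosomal membrane gene Laptm5 (-0.56, SE 0.16) and the actin-bundling gene Aif1 (-0.38, SE 0.13) had the smallest p-values, with adjusted p of 0.245 and 0.314 (edgeR). The most abundant, the protease gene Ctss and the complement gene C1qb, had -0.34 (SE 0.19) and -0.14 (SE 0.22). The mean log2 CPM of the 15 genes was 8.55, 8.67 and 8.94 (KO) and 8.81, 9.36 and 8.82 (WT), so WT replicate 2 was the high one and the groups overlapped. The difference was -0.28 (exact permutation p = 0.3, two-sided), and -0.09 without WT replicate 2.

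Each marker was then set against these 15 genes within its own library, as log2 CPM minus their mean. Mrc1 was at -1.01 ± 0.23 in KO and -1.66 ± 0.15 in WT (SD, n = 3 each), a difference of 0.66, with no overlap, the lowest KO library being above the highest of WT. Cbr2 was at -3.25 ± 0.58 in KO and -4.52 ± 0.51 in WT, a difference of 1.28, also without overlap. For both the exact permutation p was 0.1 (two-sided), the smallest that 3 against 3 allows, and 0.4 after Benjamini-Hochberg adjustment over the 10 markers. The background on this scale is high, since 13.5% of all tested genes lay above WT in every KO library, 1.48% lay below, and 86.1% had a higher KO mean. The other 8 markers overlapped, with differences from -0.32 for Timd4 to 0.90 for Cd163, and Csf1r differed by 0.08. Without WT replicate 2 the difference turned to -0.06 for Csf1r, to -0.04 for Gas6 and to 0.41 for Folr2, and without KO replicate 3 it turned to 0.26 for Timd4.

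Mrc1 as a percent of Csf1r is a ratio that no scaling of the libraries can move, and it is a pair chosen after the counts were seen. It was 25.1, 28.1 and 24.6% (KO) and 15.7, 19.3 and 17.2% (WT), or 25.9 ± 1.89% against 17.4 ± 1.78% (SD, n = 3 each). The groups were well apart, by 1.49 times in the geometric mean. The exact permutation p was 0.1 (two-sided), and 0.8 after adjustment over the 8 ratios computed. Set against Csf1r, 20.6% of all tested genes lay above WT in every KO library, 2.67% lay below and 79.6% had a higher KO mean. A lack of overlap in this direction is therefore common in these libraries. The share of genes with a gap as wide as that of Mrc1 was not computed.

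Of the other ratios to Mrc1, that of Folr2 was 1.46, 2.14 and 3.43% (KO) and 1.76, 7.61 and 3.48% (WT). That of Timd4 was 4.07, 0.492 and 0.512% in KO and 2.31, 1.80 and 2.10% in WT. The groups overlapped in both, and the spread lay in KO for Timd4 and in WT for Folr2.

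**Figure D5:**
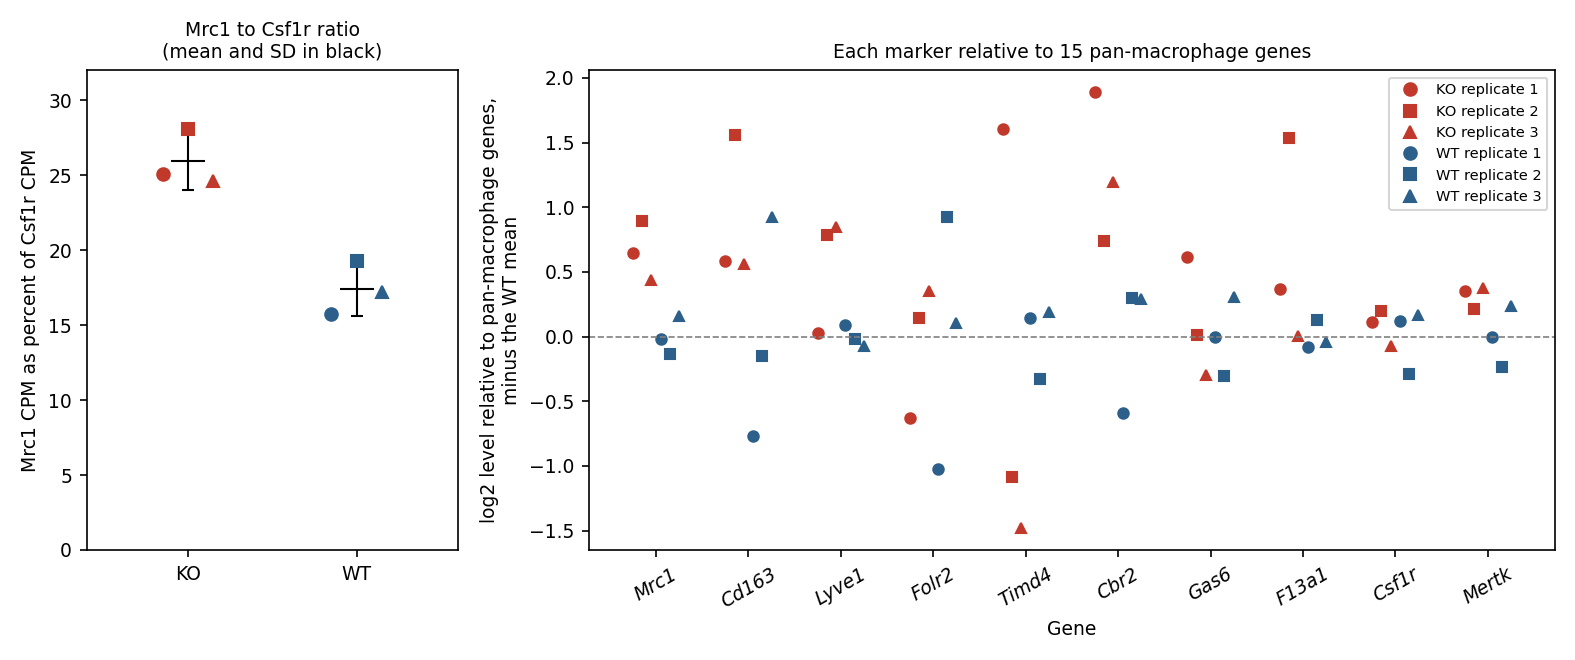
Left, Mrc1 as a percent of Csf1r in each library with mean and SD, on an axis from 0. Right, each marker's log2 level relative to 15 pan-macrophage genes, minus its WT mean; Mrc1 and Cbr2 are the markers whose KO libraries all lie above their WT libraries, where 13.5% of all tested genes do.

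Among 24 further genes known from resident or alternatively activated macrophages, 20 were tested and 0 called, with a median log2 fold change of -0.05, 8 higher and 12 lower estimates. Siglec1, a sialic acid receptor of tissue macrophages that interferon also induces, stood at 70.2, 96.8 and 122 CPM (KO) and 184, 308 and 159.8 CPM (WT). It did not overlap between groups, at a log2 estimate of -1.17 (SE 0.27, adjusted p = 0.148, edgeR). Cd5l, a secreted protein of resident macrophages, went the other way at 7.57, 4.19 and 19.3 CPM in KO and 1.52, 1.46 and 3.40 CPM in WT, with 2.29 (SE 0.57, adjusted p = 0.174). The most abundant of the list, Selenop and C4b, had log2 estimates of 0.07 (SE 0.17) and -0.29 (SE 0.20). Cd209f, Cd209b, Cd209g and Vsig4 did not pass the filter on low counts.

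The signalling partners of Csf1r had 0 of 9 tested genes called, 3 lower in KO at an unadjusted p under 0.05. The ligand Csf1 was at 133, 151 and 156 CPM (KO) and 151, 168 and 174 CPM (WT), with a log2 fold change of -0.17 (SE 0.11). Il34, the second ligand, was at 1.85 to 5.99 CPM and had a log2 fold change of -0.04 (SE 0.44). The phosphatase gene Inpp5d was lowest in p, at -0.51 (SE 0.12, adjusted p = 0.148, edgeR), with no overlap of the groups. Socs1, a brake on cytokine signalling, had -0.62 (SE 0.19, adjusted p = 0.253), the transcription factor Irf8 -0.42 (SE 0.15, adjusted p = 0.321) and the receptor subunit Csf2rb -0.22 (SE 0.18).

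Recruited and lipid-laden macrophage genes are given for comparison. Of 11 monocyte genes 0 were called, 5 were lower and 1 higher in KO at an unadjusted p under 0.05, and the median log2 fold change was -0.34. Gpr141 (-0.79, SE 0.14) and Ifitm6 (-1.11, SE 0.21) had the smallest p-values, and the most abundant, Fn1 and Hp, had 0.16 (SE 0.16) and 0.49 (SE 0.25). All 9 lipid-laden macrophage genes had higher estimates in KO, 4 of them at an unadjusted p under 0.05, with a median of 0.31, and 0 were called. Atp6v0d2 (1.56, SE 0.31) and Cd9 (0.31, SE 0.11) had the smallest p-values, and Spp1 (0.42, SE 0.18) and Lgals3 (0.04, SE 0.19) were the most abundant. Whether the resident markers differ from either list was not tested.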

How the data were processed

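Poly-T selected RNA was sequenced from abdominal aorta, per the labels' protocols. The authors deposited 1 table of unnormalised whole-number counts, with a column for each of 6 libraries. The submitters' processing notes name HISAT2 2.0.5, featureCounts 1.5.0-p3 and GRCm38. The annotation release, the strand setting and the handling of reads with several matches were not given in the sources used here, so reads of overlapping genes cannot be told apart. Limits for a count of 0 cover counting error alone, while the 95% intervals of the fold changes include the spread between libraries.

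Gene positions, exon lengths and exon overlap came from GENCODE mouse release 21 on GRCm38. Tests were run in R 4.3.3, using edgeR 4.0.16 (filterByExpr, TMM, quasi-likelihood test, Benjamini-Hochberg over all 16237 tested genes), limma 3.58.1 and DESeq2 1.42.0, and the tests were tried on simulated data. The standard error was the size of the log2 fold change over the square root of F. Log2 CPM of gene lists and of markers relative to pan-macrophage genes used a prior count of 2. Values relative to each marker's own mean, and the ratios between markers, used CPM without a prior count. RPKM was TMM-scaled CPM per kilobase of exon. Pairs of libraries differed by 25.6 to 81 chi-square per degree of freedom, so none repeats another.

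The markers and gene lists were chosen with earlier results of these data known. Beside the markers, the rule names the 2 tested genes of smallest unadjusted p and the 2 of highest mean CPM in each list described; skeletal muscle is given by its sum alone. Lyz2 was in the rule too. Csf1, Il34, Axl, Pros1, Cd68, Prox1, Flt4, Ccr2, Ly6c2, Plac8, F13b, Cd209b, Cd209d, Cd209f, Cd209g, Mgl2, Vsig4, Marco, Lyz1, Hmgxb3 and Gm10602 lie outside that rule and were chosen after their values were seen, for their role, overlap or value. Alternatives used other scalings, filters, tests, a replicate block and libraries left out. Figures were drawn with matplotlib 3.10.9.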

Additional observations from a re-analysis of the deposited data

How the results depend on the processing

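No marker was called under 15 of 16 alternatives. In those 15 the share of all genes called ran from 0 to 3.03% (DESeq2), the next highest being 0.931% without WT replicate 3. With no filter on low counts 1 marker was called, Cbr2, along with 2.18% of all genes, and the cause was not tested. Markers at an unadjusted p under 0.05 numbered 2, Mrc1 and Cbr2. There was 1, Mrc1, under DESeq2 and under the robust quasi-likelihood fit, and there were 3, with F13a1 added, with no filter and with KO replicate 3 and WT replicate 2 left out together. With 1 library left out they numbered 0 to 3, and 0 were left without KO replicate 3, WT replicate 1 or WT replicate 3. The 3 without KO replicate 1 were Mrc1 and Lyve1, higher in KO, and Timd4, lower in KO. Their unadjusted p was 0.0179, 0.0167 and 0.00131 by edgeR's quasi-likelihood test, and that of Cbr2 was 0.0948. With KO replicate 3 and WT replicate 2 left out together the log2 fold change of Timd4 was 0.42 and that of Mertk -0.038. With 1 library left out, the log2 fold change ranged from -0.98 to 0.33 for Folr2, from -1.55 to 0.38 for Timd4, from -0.10 to 0.74 for F13a1 and from -0.11 to 0.13 for Mertk. The other 6 markers kept their sign under all 16 alternatives, Mrc1 between 0.28 and 0.52 and Cbr2 between 0.65 and 1.33. Relative to the pan-macrophage genes the difference with 1 library left out ranged from -0.56 to 0.41 for Folr2, from -1.29 to 0.26 for Timd4, from -0.14 to 0.31 for Gas6 and from -0.06 to 0.17 for Csf1r. The mean of the 15 genes themselves and the ratios between markers were tried with 1 library left out after seeing the data. The first ranged from -0.39 to -0.09, and the ratios ranged on the log2 scale from 0.51 to 0.65 for Mrc1 to Csf1r, from -0.36 to 0.155 for Lyve1 to Mrc1, from -0.13 to 0.66 for Cd163 to Mrc1, from -0.35 to 0.18 for F13a1 to Mrc1 and from -0.43 to 0.034 for Gas6 to Mertk. Same-numbered KO and WT libraries did not deviate together (correlations over genes of -0.101, -0.0622 and -0.12), and the labels state no pairing. With a replicate block 0 of all 16237 genes were called, so 0 markers could be. In that fit Mrc1 had a log2 fold change of 0.38. The markers at an unadjusted p under 0.05 were then Mrc1 and F13a1. By edgeR's quasi-likelihood test the unadjusted p was 0.0446 for F13a1 and 0.0501 for Cbr2. Timd4, Folr2 and Cd163 rest on 23 to 237 counts per library, which limits their precision.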
